A study of Homo sapiens with 6 samples.

Results

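The genes described here build and regulate contractile actin bundles: the non-muscle myosin heavy chains MYH9 and MYH10, the myosin regulatory light chain MYL9, the tropomyosins TPM1, TPM2 and TPM4, the cross-linker ACTN1, and the smooth muscle genes ACTA2, TAGLN and CNN1. They were chosen by name, with earlier results of these data known, so comparisons with all probe sets describe this list only. Every probe set (a group of short probes read together as 1 value) that the platform annotation pairs with 1 of these symbols alone was kept, which gave 31 of 41091 probe sets with a single symbol and 10 of 19775 genes. MCF-10A is an established, nontransformed line of human breast epithelial cells. Its mRNA was hybridized to Affymetrix Human Genome U133 Plus 2.0 arrays, with 3 arrays for cells infected with an MBD2 lentivirus and 3 arrays for control cells. MBD2 is a protein that binds methylated CpG sites in DNA, and the lentivirus was packaged in HEK293 cells. The sources differ on the design. The methods give the controls an empty virus and name biological replicates. The design text of the data record speaks of non-infected cells hybridized as technical replicates, and the sample labels read control and MBD2 transfection. The p-values therefore cover no more than the differences among these 6 arrays. The promoter that drives the transgene, and whether the infected cells were a clone, are not given in the sources used here. MBD2 itself checked the labels: its brightest probe set read 12.17, 11.72 and 12.50 in MBD2 arrays 1, 2 and 3, against 8.92, 9.03 and 9.68 in control arrays 1, 2 and 3, on the log2 scale of the RMA-normalized values (log2 fold change 2.92, limma adjusted p = 0.0157). The other MBD2 probe sets, 202485_s_at, 214396_s_at and 214397_at, were far dimmer, with means of 4.69, 3.99 and 3.09. They overlapped between the groups, with log2 fold changes of -0.081, -0.032 and 0.11.

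Non-muscle myosin II is a motor of paired heavy chains, each carrying an essential and a regulatory light chain, and it pulls on actin filaments to give a cell tension. Phosphorylation of the regulatory light chain, by myosin light chain kinase among others, switches the motor on. Tropomyosins lie along actin filaments and govern which proteins reach them, and alpha-actinin cross-links the filaments into stress fibres. Transcription of many of these genes is driven by serum response factor (SRF) with its cofactors of the myocardin family, at a DNA element called the CArG box. ACTA2, TAGLN and CNN1 are best known from smooth muscle, and also from the myoepithelial cells of the mammary gland and from epithelial cells that take on mesenchymal traits.

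Most of these genes were higher in the MBD2 arrays. In 9 of the 10 genes every MBD2 array lay above every control array at the brightest probe set (the highest average of all 6 arrays); CNN1 was the exception, and 2055 of all 19775 genes were separated in this way. Of the 31 probe sets, 8 passed the test and were called higher, in MYH9, MYL9, TPM1, TPM2 and TPM4, with fold changes of 2.31 to 7.52. None was called lower. A call needed an adjusted p under 0.05 from limma, with Benjamini-Hochberg adjustment over all 41091 probe sets, and a fold change of at least 1.5. Over all probe sets 0.898% were called higher and 0.978% lower, against 25.8% called higher among the contractile probe sets. The median log2 fold change was 0.88 over the 31 probe sets and -0.0047 over all probe sets. All 3 MBD2 arrays lay above all 3 control arrays in 17 of the 31 (54.8%, against 10.4% of all probe sets) and below them in 1 (12.3% of all). Centring each array on housekeeping genes moved the median of all probe sets to -0.16 and the calls over all probe sets to 278 higher and 483 lower, against 369 and 402 with the deposited values, and left 7 contractile probe sets called.

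These calls rest on few arrays. Control arrays 1 and 2 were nearly identical, with 26 of the 41091 probe sets more than 2-fold apart, and so were MBD2 arrays 2 and 3, with 148. Control array 3 differed from the other controls at 3037 and 3103 probe sets, and MBD2 array 1 from the other MBD2 arrays at 5552 and 5126. MBD2 array 1 was closer to control arrays 1 and 2, from which it differed at 2940 and 2623 probe sets. The hybridization control probe sets averaged 9.72 and 9.79 on MBD2 arrays 2 and 3. They averaged 10.72 on MBD2 array 1 and 10.81 to 11.09 on the control arrays. With each near-identical pair averaged into 1 value, no contractile probe set was called by limma, nor was any of the 41091, while at an unadjusted p under 0.05 there were 16 contractile probe sets higher and 0 lower, against 3.46% of all probe sets higher and 3.23% lower. Leaving out MBD2 array 3, or either of control arrays 1 and 2, left no call, and leaving out MBD2 array 2 left 1. Few of all probe sets were called higher in these settings too. The share was 0.0243% without MBD2 array 3 and 0.0779% without MBD2 array 2. It was 0.0073% without control array 1 and 0.00487% without control array 2. There were 6 calls without control array 3 (4 of them among the 8), where 0.944% of all probe sets were called higher. Without MBD2 array 1 there were 12, the 8 included, but the share of all probe sets called higher was then 8.80%. With both control array 3 and MBD2 array 1 left out, 16 were called higher in 8 genes and 1 lower, in TPM1, against 15.5% of all probe sets called higher and 9.96% lower. The 8 called probe sets kept a positive fold change in each of these settings. When a gene was read as the average of its probe sets, MYL9 had a log2 fold change of 1.43 and TPM2 of 0.88, both still called with MYH9, whereas TPM1, at 1.09, was not (adjusted p = 0.0704).

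**Figure D1:**
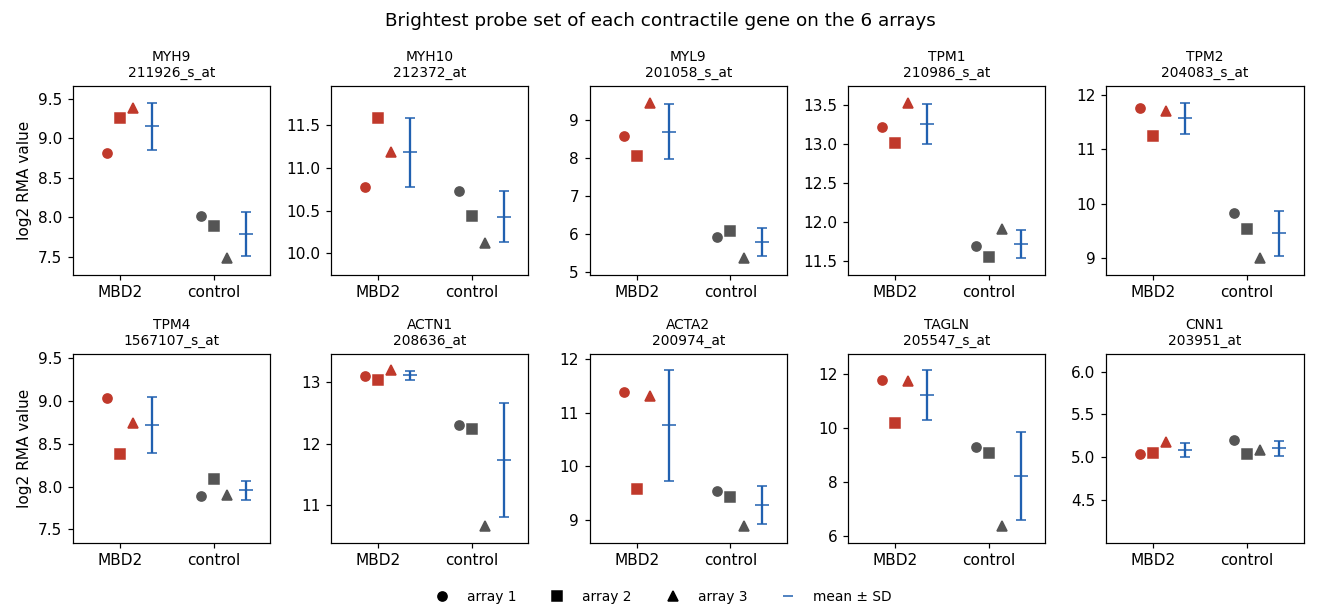
Log2 RMA value (vertical axis, a scale of its own in each panel) of the brightest probe set of each contractile gene in the 3 MBD2 arrays (left, red) and the 3 control arrays (right, grey), with circles, squares and triangles for arrays 1, 2 and 3 and the blue bar for the mean ± SD. The groups are apart in 9 of the 10 panels and overlap for CNN1, and in ACTN1 and TAGLN control array 3 lies far below the other controls.

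Promoter sequence was used for 8 of the 10 genes (all but MYL9 and TAGLN) from RefSeq (build GRCh38.p14), as 15 windows of 300 bases, each running from 250 bases before a transcript start to 50 after it. The windows were searched on both strands for the CArG box, 10 letters made of CC, then 6 letters that are A or T, then GG. A box stood in 2 of the 15 windows, against 1.29% of 35116 windows over all genes. They belong to TPM4 (chr19:16067288-16067587, plus strand, the box 173 bases before the start) and ACTN1 (chr14:68977517-68977816, minus strand, 171 bases before it). When 1 of the 6 central letters could be C or G, 8.13% of all windows matched, and ACTA2 joined (chr10:88952724-88953023, minus strand), with boxes 121 and 71 bases before the start. These windows are shown because they hold the element that SRF is known to bind in contractile genes, and each is 1 of several start sites of its gene; the boxes are in capitals.
TPM4: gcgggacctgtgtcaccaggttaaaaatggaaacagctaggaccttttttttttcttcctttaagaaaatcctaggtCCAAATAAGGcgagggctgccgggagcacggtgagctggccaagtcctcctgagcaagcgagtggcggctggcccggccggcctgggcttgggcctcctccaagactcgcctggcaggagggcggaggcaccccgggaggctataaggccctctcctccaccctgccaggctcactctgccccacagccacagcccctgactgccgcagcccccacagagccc
ACTN1: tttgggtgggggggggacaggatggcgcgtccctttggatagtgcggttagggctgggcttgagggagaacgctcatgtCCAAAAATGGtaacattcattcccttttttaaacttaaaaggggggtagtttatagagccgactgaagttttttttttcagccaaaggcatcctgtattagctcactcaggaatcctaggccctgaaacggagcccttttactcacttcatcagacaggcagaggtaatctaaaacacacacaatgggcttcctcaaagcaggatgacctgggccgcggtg
ACTA2: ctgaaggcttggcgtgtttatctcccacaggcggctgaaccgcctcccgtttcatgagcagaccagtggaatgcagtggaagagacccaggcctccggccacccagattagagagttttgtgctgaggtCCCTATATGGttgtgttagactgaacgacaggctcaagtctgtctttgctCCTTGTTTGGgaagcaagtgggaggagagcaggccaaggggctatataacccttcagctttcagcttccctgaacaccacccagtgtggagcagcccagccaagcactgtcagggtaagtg
The arrays do not tell which start site was in use, and a match is a description of the letters only.

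The windows of the members also differed in CpG sites, the dinucleotide at which MBD2 binds when it is methylated. They held 6 to 39 sites, around a median of 14 over all windows. TPM1 (chr15:63048239-63048538, plus strand), called higher at 3 probe sets, had the most, 39, and 8.71% of all windows had at least as many. CNN1 (chr19:11538601-11538900, plus strand), whose probe set did not differ beyond the spread of the arrays, had 10, and 45.3% of all windows had that many or fewer. Some windows of genes that were higher in every MBD2 array at the brightest probe set held fewer still, with 6 at ACTA2 and 7 and 8 at ACTN1. Other windows of the same genes held more, with 18 at ACTA2 and 27 and 29 at ACTN1. The TPM1 and CNN1 windows are shown with CpG sites in capitals. TPM1 held the most CpG sites of the members, and CNN1 was the member whose groups were not separate. No DNA methylation value entered this comparison.
TPM1: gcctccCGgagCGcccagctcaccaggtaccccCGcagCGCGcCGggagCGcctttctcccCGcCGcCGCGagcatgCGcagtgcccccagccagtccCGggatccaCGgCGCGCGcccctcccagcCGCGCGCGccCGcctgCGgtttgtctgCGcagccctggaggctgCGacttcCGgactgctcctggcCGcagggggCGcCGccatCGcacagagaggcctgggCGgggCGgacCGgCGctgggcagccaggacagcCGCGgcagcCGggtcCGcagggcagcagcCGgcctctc
CNN1: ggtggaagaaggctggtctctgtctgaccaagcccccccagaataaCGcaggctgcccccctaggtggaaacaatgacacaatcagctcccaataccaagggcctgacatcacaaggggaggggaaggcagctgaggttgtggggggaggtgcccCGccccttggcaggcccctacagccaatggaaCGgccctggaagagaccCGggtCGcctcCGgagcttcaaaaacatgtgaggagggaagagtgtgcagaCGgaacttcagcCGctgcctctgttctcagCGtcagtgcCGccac

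Among the myosin subunits, MYH9 and MYL9 were called higher. MYH9, the heavy chain of non-muscle myosin IIA, has 1 probe set, 211926_s_at, which read 8.81, 9.26 and 9.39 in MBD2 arrays 1, 2 and 3, against 8.01, 7.89 and 7.48 in control arrays 1, 2 and 3. The lowest MBD2 array stood above the highest control array. The means were 9.15 ± 0.30 in MBD2 arrays and 7.79 ± 0.28 in control arrays (SD, n = 3 each), which differ by 1.36 (the log2 fold change, with a standard error of 0.21 and an adjusted p of 0.0447). MYH9 was not called by limma when every probe set of the array was tested (adjusted p = 0.0534), nor with trend and robust fitting (adjusted p = 0.0645). MYH10, the heavy chain of myosin IIB, read 10.78, 11.58 and 11.18 in MBD2 arrays, against 10.73, 10.44 and 10.13 in control arrays at probe set 212372_at. The groups were apart only narrowly, with MBD2 array 1 barely above control array 1, and the log2 fold change of 0.75 was not called (adjusted p = 0.225, 95% interval 0.13 to 1.36). At the dimmer MYH10 probe set 213067_at, with 7.28, 8.16 and 7.76 in MBD2 arrays and 7.33, 7.41 and 6.95 in control arrays, the groups overlapped (log2 fold change 0.50, adjusted p = 0.392).

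MYL9, the regulatory light chain that smooth muscle and stress fibres share, had the largest fold change among the called contractile probe sets. Probe set 201058_s_at read 8.60, 8.05 and 9.47 in MBD2 arrays and 5.94, 6.08 and 5.36 in control arrays. Every MBD2 array was well above every control array, and MBD2 arrays 2 and 3, otherwise nearly identical, were 1.42 log2 units apart here. The means of 8.71 ± 0.72 in MBD2 arrays and 5.80 ± 0.38 in control arrays (SD, n = 3 each) gave a log2 fold change of 2.91 (SE, the standard error, 0.39; adjusted p = 0.0334), which is 7.52-fold. With arrays left out in turn the adjusted p lay between 0.0151 and 0.152. A further MYL9 probe set, 244149_at, overlapped between the groups, with 5.80, 6.04 and 5.92 in MBD2 arrays and 5.96, 6.02 and 5.95 in control arrays (log2 fold change -0.055, 95% interval -0.31 to 0.20).

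The tropomyosins held 6 of the 8 called probe sets. TPM1, which makes several long and short isoforms by alternative promoters and splicing, was called higher at 3 of its 6 probe sets. The brightest, 210986_s_at, read 13.22, 13.02 and 13.53 in MBD2 arrays and 11.69, 11.54 and 11.91 in control arrays. Its spread within each group was small against the gap between the groups, with means of 13.26 ± 0.26 in MBD2 arrays and 11.71 ± 0.18 in control arrays (SD, n = 3 each) and a log2 fold change of 1.54 (SE 0.17, adjusted p = 0.0212). Probe set 210987_x_at, whose ending marks probes that can also match other sequences, read 12.22, 11.68 and 12.29 in MBD2 arrays and 10.36, 10.28 and 10.71 in control arrays (log2 fold change 1.62, adjusted p = 0.0307). Probe set 206117_at, with no such ending, read 7.17, 6.58 and 7.55 in MBD2 arrays and 5.20, 5.12 and 5.43 in control arrays (log2 fold change 1.85, adjusted p = 0.0359). In all 3 the order of the MBD2 arrays was the same, with array 3 highest and array 2 lowest. Probe set 206116_s_at had a larger difference that missed the threshold, with 9.94, 9.50 and 10.49 in MBD2 arrays against 7.68, 7.70 and 8.74 in control arrays (log2 fold change 1.93, adjusted p = 0.0765).

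The last TPM1 probe sets did not follow the others. Probe set 238688_at read 9.90, 6.58 and 6.96 in MBD2 arrays and 8.42, 8.57 and 7.31 in control arrays. MBD2 array 1 lay above every control array and MBD2 arrays 2 and 3 below them, so the groups overlapped (log2 fold change -0.28, 95% interval -2.55 to 1.98). This probe set is the one called lower, at -1.72, when control array 3 and MBD2 array 1 were both left out. Probe set 1558532_at, between 3.66 and 4.04 on the 6 arrays, lay near the background of the array and differed by -0.093. Which TPM1 isoforms the probe sets read was not examined, since the positions of the probes were not used here.

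TPM2, the beta-tropomyosin, was called higher at 2 of 4 probe sets. Probe set 204083_s_at read 11.76, 11.24 and 11.71 in MBD2 arrays, against 9.82, 9.54 and 8.99 in control arrays. The groups were far apart, with means of 11.57 ± 0.29 in MBD2 arrays and 9.45 ± 0.42 in control arrays (SD, n = 3 each) and a log2 fold change of 2.12 (SE 0.26, adjusted p = 0.0249). Probe set 212654_at read 6.27, 6.02 and 6.79 in MBD2 arrays and 4.96, 5.13 and 5.10 in control arrays (log2 fold change 1.30, adjusted p = 0.0481). It was the called contractile probe set with the highest adjusted p, and it was not called after centring on housekeeping genes (adjusted p = 0.0673). The remaining TPM2 probe sets, 227397_at and 229911_at, overlapped between the groups and differed by 0.083 and 0.013 on the log2 scale.

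TPM4, a tropomyosin of non-muscle cells, had the lowest adjusted p of the contractile probe sets. Probe set 209344_at read 8.96, 8.70 and 8.93 in MBD2 arrays and 7.63, 7.79 and 7.56 in control arrays. With means of 8.87 ± 0.14 in MBD2 arrays and 7.66 ± 0.12 in control arrays (SD, n = 3 each), the log2 fold change was 1.21 (SE 0.12, adjusted p = 0.0172). The other TPM4 probe sets with a separation of the groups were not called. Probe set 1567107_s_at, the brightest of the gene, read 9.03, 8.39 and 8.74 in MBD2 arrays and 7.89, 8.09 and 7.90 in control arrays (log2 fold change 0.76, adjusted p = 0.121). Probe set 212481_s_at read 8.64, 8.44 and 8.84 in MBD2 arrays and 7.85, 7.92 and 7.50 in control arrays (log2 fold change 0.88, adjusted p = 0.067). The dimmer probe sets 1559989_at and 235922_at overlapped between the groups, with log2 fold changes of -0.23 and 0.019. TPM4 therefore counts among the called genes at 1 probe set and among the genes not called at its brightest.

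ACTN1, the non-muscle alpha-actinin that anchors stress fibres at focal adhesions, was higher in every MBD2 array at 3 probe sets without a call at any. Probe set 208636_at read 13.11, 13.04 and 13.20 in MBD2 arrays and 12.31, 12.24 and 10.66 in control arrays. The MBD2 arrays were close to each other, whereas control array 3 was far below the other controls, so that the log2 fold change of 1.38 had a standard error of 0.45 (adjusted p = 0.216). Without control array 3 the log2 fold change was 0.84 and the adjusted p 0.0392, a call. Probe sets 208637_x_at and 211160_x_at had log2 fold changes of 1.78 (adjusted p = 0.116) and 1.56 (adjusted p = 0.166), and control array 3 was again the lowest, at 7.29 and 6.44. The fourth ACTN1 probe set, 237401_at, ran the other way, with 6.63, 6.37 and 6.39 in MBD2 arrays and 7.06, 6.72 and 7.08 in control arrays (log2 fold change -0.49, adjusted p = 0.185).

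The smooth muscle genes gave no call. ACTA2, smooth muscle alpha-actin, read 11.39, 9.58 and 11.32 in MBD2 arrays and 9.54, 9.43 and 8.89 in control arrays at probe set 200974_at. MBD2 arrays 1 and 3 were high, and MBD2 array 2 was barely above control array 1 (log2 fold change 1.48, standard error 0.52, adjusted p = 0.243). Its other probe sets, 243140_at and 215787_at, were dim and overlapped between the groups, with log2 fold changes of 0.33 and -0.050. TAGLN, or SM22-alpha, an actin-binding protein and classical SRF target, read 11.78, 10.18 and 11.74 in MBD2 arrays and 9.31, 9.07 and 6.37 in control arrays at probe set 205547_s_at. Every MBD2 array was above every control array, with MBD2 array 2 and control array 3 each low within its group. The log2 fold change of 2.99 was the largest of the 31, but its standard error was 0.89 and it was not called (adjusted p = 0.185, 95% interval 0.81 to 5.17). It was 2.05 without control array 3, below the 2.70 of MYL9 in that setting, and with MBD2 array 1 left out as well it was 1.77 and called (adjusted p = 0.00928). Only the near-identical pairs remained after both were left out, and 15.5% of all probe sets were then called higher and 9.96% lower.

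TAGLN probe set 1555724_s_at read 8.75, 7.54 and 8.70 in MBD2 arrays and 7.66, 7.24 and 6.82 in control arrays, and MBD2 array 2 fell below control array 1 (log2 fold change 1.09, adjusted p = 0.249). Probe set 226523_at differed by -0.18, with overlapping groups. CNN1, calponin 1, which binds actin and inhibits the myosin ATPase in smooth muscle, stood at one level on all arrays. Its probe set 203951_at read 5.04, 5.05 and 5.18 in MBD2 arrays and 5.20, 5.04 and 5.08 in control arrays (log2 fold change -0.018, 95% interval -0.27 to 0.23, adjusted p = 0.951). An increase of the size seen for MYH9 lies outside this interval for the values of the probe set. The probe set averaged 5.10 over all arrays, below the array median of 5.24. Genes of other tissues, picked after their values were seen, read on both sides of it, with VWF averaging 5.27 and NEB 3.95. Whether the probe set detects the CNN1 transcript in these cells was not tested, so an unchanged transcript is not shown.

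**Figure D2:**
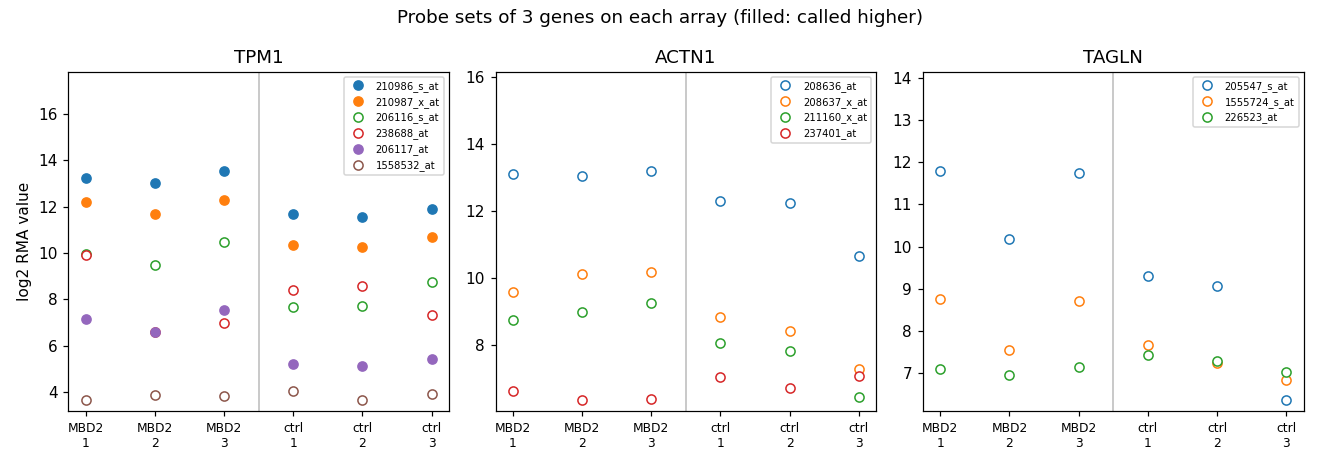
Log2 RMA value (vertical axis) of every probe set of TPM1, ACTN1 and TAGLN on each array (horizontal axis, MBD2 arrays left of the grey line and control arrays right of it), 1 colour per probe set, filled where it was called higher. Within TPM1 and ACTN1 the probe sets 238688_at and 237401_at do not follow the other bright ones, and in ACTN1 and TAGLN control array 3 is low.

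The spread within the groups followed particular arrays. Control array 3 was the lowest control in 7 of the 10 brightest probe sets. MBD2 arrays 2 and 3 were more than 2-fold apart at 4 contractile probe sets (12.9% of the 31, against 0.36% of all probe sets), namely MYL9 201058_s_at, ACTA2 200974_at and TAGLN 205547_s_at and 1555724_s_at. In all 4 it was array 3 that was higher, by 1.42, 1.74, 1.56 and 1.16 log2 units in that order. Other groups of genes moved with the arrays too. The median difference of 20 mitosis genes from the control mean was -0.47, 1.68 and 1.54 in MBD2 arrays 1, 2 and 3, against 0.61, 0.58 and -1.18 in control arrays 1, 2 and 3. POSTN, which encodes a matrix protein of fibroblasts and was picked after its values were seen, read 14.03, 11.33 and 12.20 in MBD2 arrays and 12.18, 12.28 and 3.48 in control arrays. The immediate early gene FOSB, also picked in this way, read 13.09 in control array 3 and 5.90 to 7.18 on the other 5 arrays. The part of these array differences in the contractile values was not tested, other than by leaving the arrays out.

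Close relatives of the 10 genes included 2 called genes. Of 15 listed, 13 had a probe set with a single symbol, and at their brightest probe sets 2 were called higher and none lower, with a median log2 fold change of 0.29. Over all genes 1.04% were called higher and 1.28% lower. In 5 of the 13 every MBD2 array lay above every control array, against 2055 of all 19775 genes. The calls were CNN3, the calponin of non-muscle cells, with 8.50, 7.93 and 8.15 in MBD2 arrays and 6.25, 6.65 and 6.86 in control arrays (log2 fold change 1.61, adjusted p = 0.0333), and MYL12A, a further myosin regulatory light chain, with 11.22, 11.41 and 11.68 in MBD2 arrays and 10.43, 10.47 and 10.62 in control arrays (log2 fold change 0.93, adjusted p = 0.0453). Within the calponins, CNN3 was thus called and CNN1 was not, and the difference between them was not tested. CNN2 had a log2 fold change of 0.31 (adjusted p = 0.81). TAGLN2, a relative of TAGLN found in most cells, differed by 0.90 (adjusted p = 0.335), with 11.38, 12.65 and 12.74 in MBD2 arrays and 11.41, 11.00 and 11.64 in control arrays.

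The other light chains and actins were not called. ACTG2, the smooth muscle gamma-actin, read 5.75, 5.88 and 7.57 in MBD2 arrays and 5.17, 4.97 and 4.54 in control arrays, every MBD2 array above every control array (log2 fold change 1.5, adjusted p = 0.23; named after its values were seen). MYL12B, a near copy of MYL12A, differed by 0.27 (adjusted p = 0.716) and MYL6, the essential light chain, by 0.29 (adjusted p = 0.33). ACTB, the main cytoplasmic actin, differed by 0.36 (adjusted p = 0.204) and ACTN4, the close relative of ACTN1, by 0.099 (adjusted p = 0.853). MYH14, the heavy chain of myosin IIC and a gene of epithelia, was the relative with the largest negative value. It read 7.25, 7.06 and 7.07 in MBD2 arrays and 7.71, 7.61 and 7.76 in control arrays, a log2 fold change of -0.56 that was not called (adjusted p = 0.065). No single-symbol probe set was found for TPM3 or ACTG1.

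SSH1, a phosphatase that activates the actin-severing protein cofilin, was called higher, with 9.28, 8.91 and 8.84 in MBD2 arrays and 7.97, 8.17 and 7.75 in control arrays (log2 fold change 1.05, adjusted p = 0.0492). MYLK, the kinase that phosphorylates the regulatory light chain, read 12.55, 9.59 and 10.21 in MBD2 arrays and 10.35, 10.32 and 7.89 in control arrays. Its values overlapped, with MBD2 array 1 high and control array 3 low (log2 fold change 1.26, adjusted p = 0.588). Of genes of stress fibres and focal adhesions 32 of 36 were measured, 1 was called higher and none lower, with a median of 0.38. Over all genes 1.04% were called higher and 1.28% lower. All MBD2 arrays lay above all control arrays in 10 of the 32 and below them in 3, against 2055 and 2885 of all 19775 genes. The called gene was PALLD, palladin, a partner of alpha-actinin, with 12.99, 12.51 and 12.70 in MBD2 arrays and 11.82, 11.77 and 11.53 in control arrays (log2 fold change 1.03, adjusted p = 0.0453). CALD1, caldesmon, which works with tropomyosin on actin, differed by 0.79 and missed the threshold (adjusted p = 0.0617).

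SRF, its cofactors, target genes and other genes listed with them gave no call. In this list 17 of 18 genes were measured and the median log2 fold change was -0.0044. Over all genes 1.04% were called higher and 1.28% lower, so a list of 17 without a call does not stand apart from all genes. SRF itself read 7.68, 7.48 and 7.48 in MBD2 arrays and 7.54, 7.62 and 7.54 in control arrays (log2 fold change -0.018, adjusted p = 0.952). Its cofactors MRTFA, with 0.12 (adjusted p = 0.74), and MRTFB, with -0.0044 (adjusted p = 0.993), were also close to 0, and MYOCD, the cofactor of smooth and cardiac muscle, was dim and differed by 0.29 (adjusted p = 0.546). Target genes had larger values without a call. CCN2 read 9.40, 8.86 and 9.48 in MBD2 arrays and 7.57, 7.52 and 6.28 in control arrays (log2 fold change 2.13, adjusted p = 0.0639). In JUNB all MBD2 arrays lay below all control arrays, at a log2 fold change of -1.43 (adjusted p = 0.226), and both were named after their values were seen. These are transcript levels, and the activity of the factors was not measured. Of 99 related genes listed in all, SSH1 and MYLK among them, 90 were measured, 4 were called higher and none lower by limma, and without adjustment 19 had p under 0.05 with a higher and 4 with a lower value, against 8.83% and 9.79% of all genes. With the near-identical arrays averaged none of the 90 was called, and with control array 3 and MBD2 array 1 left out 28 were called higher and 7 lower, against 16.8% and 10.6% of all genes.

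**Figure D3:**
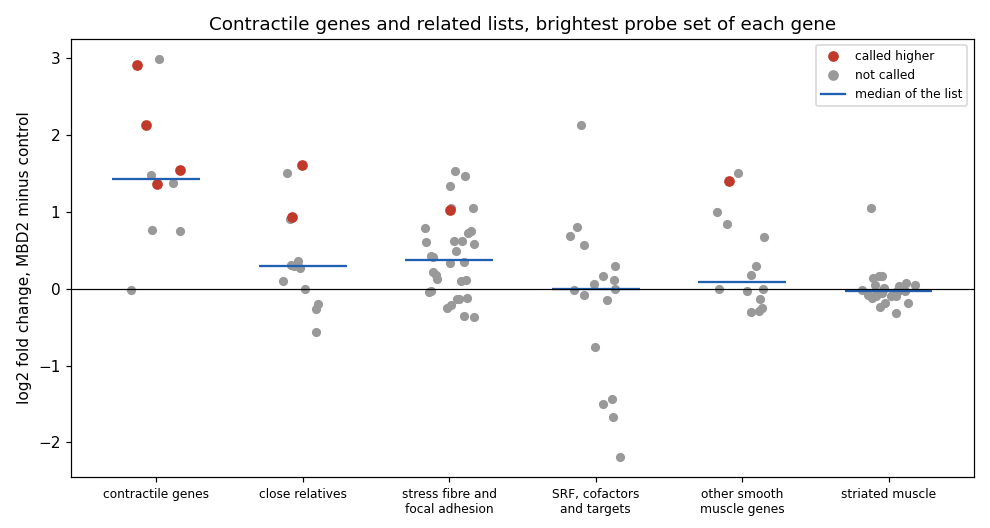
Log2 fold change, MBD2 minus control (vertical axis), at the brightest probe set of each gene for the contractile genes and 5 related lists, with red points called higher, grey points not called and the blue line at the median of each list. The median is 1.43 for the 10 contractile genes and 0.38 or less for the other lists.

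Markers of other cell types were read on the same arrays, since in bulk RNA fewer cells of a type and less RNA per cell cannot be told apart. Among 14 other smooth muscle genes 1 was called higher, CSRP1, at a log2 fold change of 1.40 (adjusted p = 0.0452; named after its values were seen), and the median was 0.083. Of the others, ACTG2 and RGS5, a gene of pericytes, had every MBD2 array above every control array, with RGS5 at a log2 fold change of 0.84 (adjusted p = 0.0672), and SMTN, smoothelin, was at 1.00 (adjusted p = 0.304). The smooth muscle myosin MYH11 read 5.55 to 5.80 in MBD2 arrays and 5.63 to 5.71 in control arrays, and MYOCD 3.74 to 4.21 in MBD2 arrays and 3.43 to 4.05 in control arrays, where probes for a transcript that was not added reached 3.46 to 3.67. The summed level of the smooth muscle list on the log2 scale was 11.7 to 12.5 in MBD2 arrays and 10.8 to 11.0 in control arrays, most of it from CSRP1, which alone read 11.45 to 12.23 in MBD2 arrays and 10.26 to 10.59 in control arrays. None of 25 striated muscle genes, 10 fibroblast genes, 7 endothelial genes or 5 leukocyte genes was called. Over all genes 1.04% were called higher and 1.28% lower. In the leukocyte gene CD14 every MBD2 array lay below every control array (log2 fold change -3.07, adjusted p = 0.0509). The fibroblast genes COL1A1 and COL6A3 had every MBD2 array above every control array (1.28 and 1.22, adjusted p = 0.108 and 0.125). For THY1, also of fibroblasts, it was the reverse (-0.24, adjusted p = 0.359). The summed level of the fibroblast genes was 12.3 to 14.8 in MBD2 arrays and 10.4 to 13.0 in control arrays, with MBD2 array 1 highest and control array 3 lowest. Of 9 measured markers of basal mammary epithelium 1 was called lower, the keratin KRT16, at a log2 fold change of -4.50 (adjusted p = 0.00807), and their summed level was 15.3 to 15.8 in MBD2 arrays and 15.8 to 16.4 in control arrays. KRT14, a defining keratin of basal epithelium, read 13.37 to 13.98 in MBD2 arrays and 14.00 to 14.37 in control arrays. ITGB4 and LAMB3, of the epithelial anchoring complex, were the 2 of the 9 with a positive log2 fold change, 0.81 and 0.61 (adjusted p = 0.446 and 0.62). The median of the 9 was -0.56. In 4 of them every MBD2 array lay below every control array, as in 2885 of all 19775 genes. Among these were CDH1, at -1.61 (adjusted p = 0.158), and KRT5, at -1.26 (adjusted p = 0.167). These markers were named after their values were seen. The part of these markers in the contractile values was not tested.

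The genes whose pattern over the 6 arrays was nearest to that of a contractile gene were found from log2 values centred on each gene's mean, by the mean absolute difference over the arrays, among genes with an SD of at least 0.5. Nearest to MYL9 were WIPF1 (0.21), PLCXD2 (0.23) and TGM2 (0.26). MYH9 was nearest to SH3BP4 (0.050), CAVIN1 (0.10) and ACOT9 (0.10), and TAGLN to ADAMTS6 (0.16), S1PR3 (0.19) and COL4A1 (0.20). Each is a distance in log2 units, and a smaller one means a closer pattern over these 6 arrays.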

How the data were processed

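The values used are the log2 expression values that the authors deposited, made by RMA, which the submitters' processing notes name together with the affy package. The median was 5.24 on every array. The number of arrays limits the precision. Probe sets were named through the platform annotation: 41091 had 1 symbol, 1801 several and 11721 none, and 62 are array controls; only the first entered the tests. Groups were compared with limma 3.58.1 in R 4.3.3 (group as the only term, then eBayes), on all 41091 probe sets without a filter on dim ones. For the arrays the methods section gives a rule of over 1.5-fold or under 0.5-fold in each sample, and the paper's results apply a further cut on p and ratio, which was not used here. The fit was tested on simulated data with independent noise for each probe set and array. That simulation held no near-identical arrays, so it does not show how the calls behave with such pairs. The members, lists and alternatives were chosen with earlier results of these data known. Genes named are the 10 members, MBD2, 17 relatives and regulators fixed by name, up to 4 called genes of each of 4 lists, and the 3 genes nearest in pattern to MYL9, MYH9 and TAGLN; others are stated as picked later. Same-numbered arrays did not deviate together (correlations of deviations 0.21, -0.33 and 0.28), so the numbers were not used as pairs. The counts of 1 of the 4 lists by itself are not reported here.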

Additional observations from a re-analysis of the deposited data

How the results depend on the processing

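The 8 called probe sets were positive under every alternative that tested them, and each of the 8 calls depended on which arrays entered. The arrays are few, and they hold near-identical pairs. For contractile probe sets called higher, against 8 with the deposited values, the count was 4 with 1 probe set per gene, 3 with the mean of a gene's probe sets, 3 with only probe sets without a shared-sequence ending (19 of the 31 remained to be tested), 0 with a replicate block, 0 with near-identical arrays averaged, 16 with control array 3 and MBD2 array 1 left out (and 1 lower) and 14 under the methods' rule (2.99% of all probe sets higher). The share of all genes called higher was 1.25% with 1 probe set per gene and 0.991% with the mean of a gene's probe sets. Of all probe sets tested, 0.912% were called higher without shared-sequence endings and 0.00243% with the replicate block. That share was 0% with near-identical arrays averaged and 15.5% with the 2 arrays left out. With each array left out in turn the contractile count was 0 to 12, while the share of all probe sets was 0.00487% to 8.80%. For the 90 related genes, against 4 called higher and 0 lower, the count higher was 1 with every probe set of the array, 1 after centring on housekeeping genes, 1 with trend and robust fitting, 0 with a replicate block, 0 with near-identical arrays averaged, 28 (and 7 lower) with the 2 arrays left out and 12 (and 3 lower) under the methods' rule, where 16.8% (10.6%) and 3.47% (1.81%) of all genes were called. With every probe set of the array, 0.569% of all probe sets were called higher. Of all genes, 0.829% were called higher after centring and 0.698% with trend and robust fitting. That share was 0.00506% with the replicate block and 0% with near-identical arrays averaged. With each array left out, the count for the 90 genes was 0 to 16 higher and 0 to 3 lower. The most were called without MBD2 array 1, where 9.55% and 5.52% of all genes were called. Sign changes occurred only in probe sets that were not called. After centring, TPM2 227397_at was at -0.068, TPM2 229911_at at -0.14 and TPM4 235922_at at -0.13. TPM2 229911_at was at -0.0054 after a further quantile normalization. With near-identical arrays averaged, ACTA2 215787_at was at 0.0025, TPM2 229911_at at -0.00086 and TPM1 238688_at at 0.43. With the 2 arrays left out, TPM4 235922_at was at -0.11 and ACTA2 243140_at at -0.15. With each array left out, the range was -0.065 to 0.030 for CNN1 203951_at, -0.14 to 0.048 for ACTA2 215787_at, -0.031 to 0.085 for TPM2 229911_at, -0.26 to 0.17 for TPM4 235922_at, -1.33 to 0.33 for TPM1 238688_at, -0.022 to 0.54 for ACTA2 243140_at and -0.12 to 0.0051 for MYL9 244149_at. The cause of these differences was not tested, other than fewer arrays or probe sets where a setting leaves them out.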
